A study of Mus musculus with 3 samples.

Results

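Brain cells of mice were read here for 117 cells picked as microglia by their RNA, out of 404 cells of the authors' cluster 3 and of 4668 cells in all. A cell was picked when it lay in cluster 3 and had at least 1 UMI (unique molecular identifier, 1 counted RNA molecule) of at least 3 of 7 microglia genes (Tmem119, P2ry12, Cx3cr1, Fcrls, Gpr34, Siglech and Olfml3) and of at most 1 of 5 T cell genes (Cd3d, Cd3e, Cd3g, Trac and Trbc2). The picked cells made up 2.51% of all cells (95% exact Clopper-Pearson interval 2.08 to 3.00%) and 29.0% of cluster 3 (24.6 to 33.7%). They numbered 10, 19, 33 and 55 in the brains carrying hashtags 1, 2, 3 and 4.

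The study set brains with metastases against naive brains. All brains came from female C57BL/6 mice 2 to 3 months old; the metastases grew from E0771 mouse mammary tumour cells injected into the carotid artery about 2 weeks earlier, and the naive brains bore none. After perfusion, papain digestion and enrichment of mononuclear cells on a Percoll gradient, each of the 4 brains was stained with 6 antibodies (to CD3e, CD4, CD25, CD11b, CD45 and CD86) and with a hashtag antibody of its own, and the cells were pooled into 1 run of the 10x Genomics 3' assay. The labels used here tie no hashtag to a condition, so the brains are described one by one and are not set against each other as naive and metastatic. Each hashtag is 1 animal, and intervals on the values of a brain cover counting error only.

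Microglia are the resident macrophages of the brain. They arise from yolk sac precursors, depend on signals through the Csf1 receptor and on the transcription factor PU.1, and prune synapses, clear debris and respond to injury. Monocytes that enter a diseased brain can take on macrophage features, and CD45, CD11b and genes such as Ly6c2 and Ccr2 are commonly used to tell them from microglia.

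The surface readout that is compared with the RNA below rests on 15-base barcodes joined to the antibodies. The barcodes of the 3 tags carried by myeloid cells and of the CD3e tag are shown because the comparisons turn on them, as the deposited barcode table lists them, in capitals throughout.
CD45: TGGCTATGGAGCAGA
CD11b: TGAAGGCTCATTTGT
CD86: CTGGATTTGTGTATC
CD3e: TAATGCCAGTTGTGC
The hashtag barcodes decide to which brain a cell was assigned.
Hashtag 1: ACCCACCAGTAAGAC
Hashtag 2: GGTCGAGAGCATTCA
Hashtag 3: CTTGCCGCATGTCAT
Hashtag 4: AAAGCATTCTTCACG

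The selected cells had a median of 3398, 3258, 4341 and 4123 UMIs in hashtags 1 to 4, and 38164, 75265, 170214 and 243526 UMIs were summed over them. At least 80% of the hashtag counts came from the cell's own hashtag in 5 of 10, 9 of 19, 28 of 33 and 43 of 55 selected cells, so the assignment to a brain was less pure in hashtags 1 and 2. All 4668 barcodes were found in both deposited tables and none was duplicated.

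The data went partly against the name microglia. Of the 117 selected cells, 71 (60.7%, 51.2 to 69.6%) also had UMIs of at least 3 of 7 monocyte genes (Ly6c2, Ccr2, Plac8, Ms4a4c, Chil3, Tgfbi and Clec4a3). They were 3 of 10, 6 of 19, 22 of 33 and 40 of 55 cells in hashtags 1 to 4, and the share was thus 30.0%, 31.6%, 66.7% and 72.7%. In cluster 1, whose cells carry choroid plexus genes and should lack monocyte genes, 33 of 880 cells (3.75%) reached 3 monocyte genes at a median of 7282.5 UMIs per cell, against a median of 3890 UMIs in the selected cells. With every cell thinned to 2495 UMIs, 54 of the 117 selected cells (46.2%) and 3 of 880 cells of cluster 1 (0.341%) reached 3 monocyte genes. By brain the thinned shares of selected cells were 30.0%, 26.3%, 48.5% and 54.5%, closer together than at full depth. Spearman's rho of the number of monocyte genes with the UMI count of the cell was -0.068, 0.076, 0.67 and -0.044 in hashtags 1 to 4. At least 3 of 7 genes of Pf4-positive macrophages (Pf4, Ms4a7, Gpnmb, Mrc1, Lyve1, Cd163 and Spp1) were seen in 0 of 10, 4 of 19, 13 of 33 and 21 of 55 selected cells; 0 of 10 allows a share of up to 30.0% by a limit of 3 counts, and up to 30.8% by the exact interval. The cells are therefore called selected cells below, by the rule that picked them, and the 46 of them with fewer than 3 monocyte genes (7, 13, 11 and 15 by hashtag) are given beside the whole.

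The 7 genes of the selection are given as levels in UMIs per 10000 UMIs of the selected cells, with no test, because they made the selection. Cx3cr1, the receptor for the neuronal chemokine fractalkine, stood at 19.1, 20.1, 5.64 and 7.47 in hashtags 1 to 4, against 6.14, 13, 2.27 and 2.87 in the other cells of cluster 3. Tmem119, a membrane protein used as a microglia marker, stood at 6.29, 6.78, 2.12 and 3.53, against 1.78, 3.29, 0.835 and 0.718 in the other cells. Hashtags 1 and 2 were high and hashtags 3 and 4 low for both genes. P2ry12, the purinergic receptor by which microglia sense ADP, stood at 3.67, 3.99, 1.29 and 1.81 in the selected cells, against 2.18, 4.23, 0.338 and 0.410 in the other cells. It was the one selection gene that was not higher in the selected cells of every brain. Of these other cells, 6 of 11 in hashtag 1 and 10 of 15 in hashtag 2 had at least 3 selection genes. They had been removed for their T cell genes. In the other cells with at most 1 T cell gene (3 and 4 cells in hashtags 1 and 2), P2ry12 stood at 0, 0, 0.224 and 0.105. These cells had fewer than 3 selection genes by definition, so their low P2ry12 level was largely set by the selection. Fcrls, an Fc receptor-like gene used as a mouse microglia marker, stood at 7.34, 5.98, 2.23 and 3.29 in the selected cells, against 2.18, 4.23, 0.696 and 1.09. Gpr34, a receptor for lysophosphatidylserine, stood at 4.46, 4.12, 0.764 and 1.48 in the selected cells, against 0.198, 2.66, 0.139 and 0.171. Siglech, a sialic acid-binding lectin, and Olfml3, a secreted glycoprotein, stood at 2.62, 4.12, 1.23 and 1.40 and at 4.72, 3.99, 0.764 and 1.77 in the selected cells, again with the 2 highest values in hashtags 1 and 2. Summed over the 7 genes, the level was 48.2, 49.0, 14.0 and 20.7 in the selected cells, 51.7, 51.9, 19.9 and 24.1 in those with fewer than 3 monocyte genes, 16.3, 33.0, 4.97 and 6.27 in the other cells of cluster 3, and between 0.319 and 0.584 in cluster 1.

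**Figure D1:**
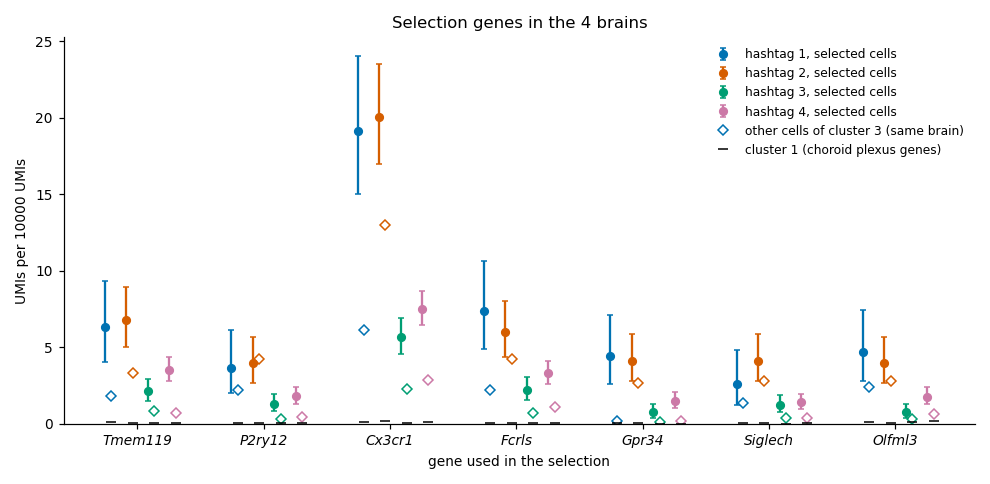
Levels of the 7 selection genes (UMIs per 10000 UMIs, vertical axis) in the selected cells of each brain (filled points, with exact Poisson 95% intervals), in the other cells of cluster 3 of the same brain (open diamonds) and in cluster 1 (dashes). Cx3cr1 lies at 19.1 and 20.1 in hashtags 1 and 2 and at 5.64 and 7.47 in hashtags 3 and 4, and cluster 1 lies near 0 for all 7 genes.

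The number of selection genes seen in a cell differed between brains. Exactly 3 genes, the least the rule allows, were seen in 1 of 10, 1 of 19, 15 of 33 and 26 of 55 selected cells, and all 7 genes in 4, 5, 1 and 3 cells. Over all brains, 43 selected cells had 3 genes, 33 had 4, 17 had 5, 11 had 6 and 13 had 7. The cells just inside the rule (3 genes, 43 cells) came almost wholly from hashtags 3 and 4, so both sides of the threshold are given for those brains. In hashtag 3, Cst3 stood at 59.0 UMIs per 10000 in 15 cells with 3 genes and at 67.9 in 24 cells just outside the rule (2 genes and at most 1 T cell gene). In hashtag 4 it stood at 68.3 in 26 cells with 3 genes and at 39.5 in 26 cells just outside. The cells inside the threshold were thus lower in one of these brains and higher in the other. Cells with 5 to 7 genes had the highest Cst3 level in each brain, at 332.5, 273.9, 139.4 and 168.5 in 7, 13, 6 and 15 cells of hashtags 1 to 4. At least 3 monocyte genes were seen in 66.7% of cells with 5 to 7, with 4 and with 3 selection genes in hashtag 3, and in 79.2% of those with 2. In hashtag 4 the shares were 60%, 78.6%, 76.9% and 76.9%. Within the brains the number of selection genes ran with the Cst3 level, with a Spearman's rho of 0.86, 0.65, 0.47 and 0.44 over 10, 19, 33 and 55 cells, a description over cells that share 1 animal and 1 library. With the UMI count of the cell, rho was 0.37, 0.15, 0.025 and 0.36, so that depth also ran with the number of genes in hashtags 1 and 4.

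In the RefSeq table of GRCm38.p6, 5 of the 7 selection genes have a promoter window, from 250 bases before to 50 after the gene's start. The windows were searched on both strands for AGGAAGT, a core of the kind that PU.1 and other ETS factors bind. It occurs in 9.35% of the 32851 windows of that table and in 2 of these 5, P2ry12 and Fcrls, which are shown because they hold it. All 7 selection genes were higher in hashtags 1 and 2 than in hashtags 3 and 4, so that pattern was not particular to these 2. The match, on either strand, is in capitals, and both genes lie on the minus strand.
P2ry12, chr3:59262936-59263235: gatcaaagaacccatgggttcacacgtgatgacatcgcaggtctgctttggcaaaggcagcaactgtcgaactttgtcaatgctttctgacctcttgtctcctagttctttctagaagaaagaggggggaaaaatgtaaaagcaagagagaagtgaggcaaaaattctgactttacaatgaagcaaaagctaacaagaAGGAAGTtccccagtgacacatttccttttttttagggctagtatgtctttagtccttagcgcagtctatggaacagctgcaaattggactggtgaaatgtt
Fcrls, chr3:87263475-87263774: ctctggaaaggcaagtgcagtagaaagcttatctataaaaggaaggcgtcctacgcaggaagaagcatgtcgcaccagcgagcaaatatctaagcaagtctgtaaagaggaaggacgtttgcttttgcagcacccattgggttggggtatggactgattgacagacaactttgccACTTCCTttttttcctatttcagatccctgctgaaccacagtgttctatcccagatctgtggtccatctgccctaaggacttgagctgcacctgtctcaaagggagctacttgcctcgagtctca
No measurement here bears on binding at these windows. Spi1, which encodes PU.1, stood at 3.41, 3.85, 3.47 and 3.45 UMIs per 10000 in the selected cells of hashtags 1 to 4, against 2.18, 3.29, 3.78 and 2.84 in the other cells.

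The antibody tags were not used by the rule, although Cd3e, the gene of the CD3e tag, was. The CD45, CD86 and CD25 tags had higher medians in each brain on the selected cells that carried monocyte genes. The CD45 tag, the pan-leukocyte surface antigen, had a median of 5046, 6110.5, 8980.5 and 7839.5 counts per cell in selected cells with at least 3 monocyte genes, against 3417, 3539, 1846 and 3904 counts in those with fewer. CD45 was thus higher with monocyte genes in each of the 4 brains, and over all brains the medians were 7953 in 71 cells and 3408 in 46 cells. CD86, a costimulatory ligand of T cells, had medians of 207, 229, 212.5 and 313.5 counts with monocyte genes, against 126, 208, 83 and 106 without, and was also higher in each brain. CD11b, the integrin of myeloid cells, had medians of 3216, 4601.5, 8620 and 5420.5 counts with monocyte genes, against 4292, 4055, 2602 and 3397 without, and was lower in hashtag 1, where 3 cells had monocyte genes. Median UMIs per cell were 3540, 3273, 4638 and 4006.5 with monocyte genes, against 3256, 3229, 3185 and 4147 without, so that depth differed most in hashtag 3. When the monocyte genes were counted after thinning to 2495 UMIs, the CD45 medians were 5046, 4186, 8125 and 7839.5 with monocyte genes, against 3417, 4281.5, 4859 and 4531 without, and hashtag 2 no longer showed the difference. The CD86 medians were then 207, 202, 192 and 318.5, against 126, 211, 95 and 123, and again hashtag 2 did not show it. The CD11b medians were then 3216, 3599, 8620 and 5401, against 4292, 4407.5, 3649 and 4333, lower with monocyte genes in hashtags 1 and 2 and higher in hashtags 3 and 4. Without thinning, the CD3e medians were 9, 6, 13 and 3 with monocyte genes, against 2, 4, 1 and 4 without, and the CD4 medians 32, 9, 18 and 11.5, against 11, 18, 10 and 13, with no one direction over the brains. The CD25 medians, at low counts, were 28, 16.5, 14.5 and 15.5 with monocyte genes, against 9, 6, 6 and 9 without. After thinning they were 28, 14, 14.5 and 14.5, against 9, 7.5, 9 and 13, still higher in each brain. This split of the selected cells was made after their values had been seen, so it is given without a test.

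**Figure D2:**
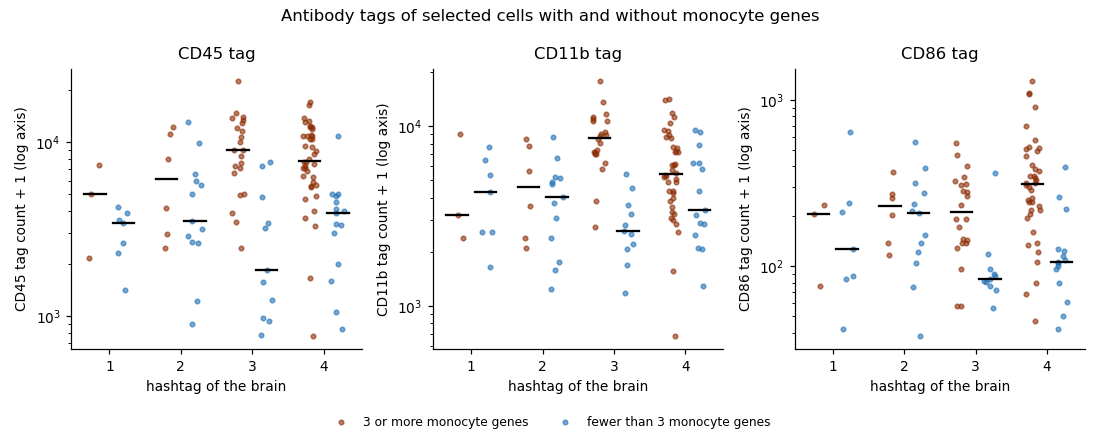
Counts of the CD45, CD11b and CD86 tags (plus 1, log axis) in each selected cell, by brain, for cells with at least 3 monocyte genes (left in each pair) and with fewer (right); black lines are medians. In hashtag 3 the CD45 median lies at 8980.5 with monocyte genes and at 1846 without.

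Against the other cells of cluster 3 in the same brain, none of the 6 tags differed past the threshold. On the log2 scale the CD45 tag was lower in the selected cells of all 4 brains. Its medians were 3502, 4186, 7271 and 6839 counts in hashtags 1 to 4 in the selected cells and 6302, 7503, 7263.5 and 7884 in the other cells, so that hashtag 3 had nearly equal medians. The mean difference of log2(count + 1) was -0.52 ± 0.30 (SD over 4 brains). By an exact two-sided permutation of the signs of the brain differences its p was 0.125, the smallest that 4 brains allow, so no tag could pass 0.05, and it was 0.375 after Benjamini-Hochberg adjustment over the 6 tags. CD11b was higher by 0.20 ± 0.48 (SD over 4 brains), higher in 3 of 4 brains (exact permutation p = 0.625, adjusted 0.875). Its medians were 3754, 4055, 7037 and 5297 counts in the selected cells and 2554, 4220, 5671 and 5036 in the other cells. CD86 differed by -0.02 ± 0.21 (higher in 2 of 4 brains, exact permutation p = 0.875, adjusted 0.875) and CD25, the interleukin 2 receptor alpha chain, by 0.05 ± 0.31 (higher in 2 of 4 brains, exact permutation p = 0.75, adjusted 0.875). CD4, the coreceptor of helper T cells, differed by -0.50 ± 0.36, lower in 3 of 4 brains (exact permutation p = 0.25, adjusted 0.5). The selected cells stood far from the non-immune clusters: outside clusters 3 and 6, the median CD45 count per brain was 39 to 46 and the median CD11b count 37 to 42. All 117 selected cells had at least 300 CD45 counts. Ptprc, the gene of CD45, was also lower in the selected cells of each brain, at 1.31, 2.52, 1.82 and 2.51 UMIs per 10000, against 3.37, 2.98, 2.45 and 2.56 in the other cells.

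CD3e, a subunit of the T cell receptor complex, was the tag with the largest mean difference. Its median was 2, 4, 6 and 3 counts in the selected cells, against 20, 44, 6 and 8 in the other cells of cluster 3. The difference of log2(count + 1) was -1.13 ± 0.76 (SD over 4 brains), lower in all 4 brains (exact permutation p = 0.125, adjusted 0.375). The other cells had 2 or more T cell genes in most of hashtags 1 and 2, where 3 of 11 and 4 of 15 had at most 1, whereas 83 of 122 and 94 of 139 had at most 1 of these genes in hashtags 3 and 4. Against the other cells with at most 1 T cell gene, the CD3e difference turned to 0.41, the CD4 difference to 0.21 and the CD11b difference to -0.28. The CD45 difference shrank to -0.31 and no longer had one sign in all 4 brains (exact permutation p = 0.75). It was -1.15 for the selected cells with fewer than 3 monocyte genes and -0.25 as a share of the 6 tags.

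The T cell rule removed 45 of the 162 cells of cluster 3 with at least 3 selection genes, namely 6, 10, 12 and 17 in hashtags 1 to 4. The CD3e tag, read on protein, was higher on the removed cells of each brain, and its gene Cd3e was among the genes that removed them. Its median was 2, 4, 6 and 3 counts in the selected cells and 34, 55, 41 and 34 in the removed cells. At least 20 CD3e counts were found on 24 of 117 selected cells (20.5%) and on 36 of 45 removed cells (80%). By brain these were 1 of 10, 4 of 19, 10 of 33 and 9 of 55 selected cells. The CD4 tag had medians of 12, 16, 15 and 12 counts in the selected cells and 25, 71.5, 13.5 and 83 in the removed cells. CD11b stayed high on the removed cells, at medians of 2668.5, 3135, 6802 and 6160 counts, against 3754, 4055, 7037 and 5297 in the selected cells. The removed cells thus carried the CD11b tag and RNA of both kinds in 1 droplet, and 36 of 45 reached 20 CD3e counts. They had more UMIs, at medians of 4494, 4589.5, 4953.5 and 4877, against 3398, 3258, 4341 and 4123 in the selected cells. Their CD45 medians were also higher, at 6777, 8326, 10890.5 and 11683 counts, against 3502, 4186, 7271 and 6839. The part of depth was not tested, and no doublet caller was run.

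**Figure D3:**
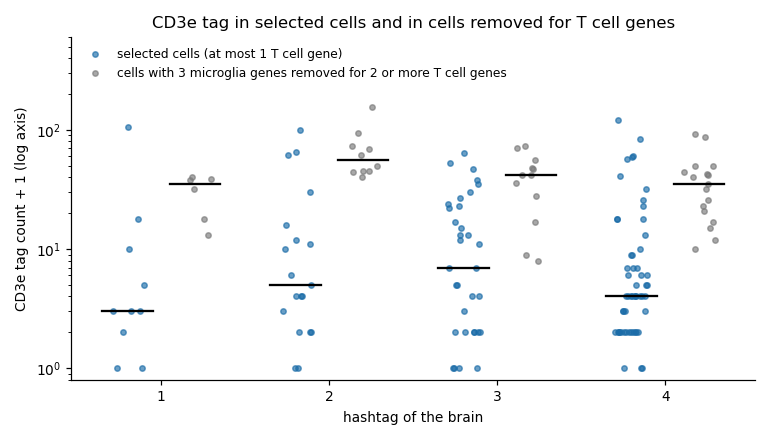
CD3e tag counts (plus 1, log axis) of the selected cells (left in each pair) and of the cells with at least 3 selection genes that were removed for 2 or more T cell genes (right), by brain; black lines are medians. The medians are 2, 4, 6 and 3 counts in selected cells and 34, 55, 41 and 34 in removed cells, and 24 of 117 selected cells reach 20 counts.

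Genes were set against the other cells of cluster 3 in the same brain as a description with no test, because RNA had made both the cluster and the selection. In hashtags 1 and 2 most of these other cells (6 of 11 and 10 of 15) themselves had at least 3 selection genes. Of 7013 genes with at least 20 UMIs over both classes, 2 were at least 2-fold higher in the selected cells of each brain (0.0285%) and 10 at least 2-fold lower (0.143%). The 2 were Tmem119, of the selection itself, and Tpp2, a peptidase, at 0.786, 0.531, 0.705 and 0.657 UMIs per 10000, against 0, 0.157, 0.278 and 0.205. The selected cells of hashtags 1 and 2 held 38164 and 75265 UMIs in all, so Tpp2 rested on few molecules there. With 0.5 per 10000 added in place of 0.1, no gene was 2-fold higher in each brain. The 10 were the 5 T cell genes of the rule with Thy1, Cd8b1 and Ltb, all known from lymphocytes, and Hist1h2ap and Anapc2. Without regard to size, 518 genes (7.39%) were higher and 518 (7.39%) lower in the selected cells of each brain, and these shares stand beside the counts of the lists below, which describe the selected cells and carry no test. The median log2 difference of all tested genes lay between 0.00 and 0.01 in the 4 brains.

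Of 16 genes of resting (homeostatic) microglia outside the selection, 11 were higher in the selected cells of each brain and none was lower in each. Cst3 (cystatin C, an inhibitor of cysteine proteases) stood at 293.3, 239.6, 80.6 and 101.3 UMIs per 10000 in hashtags 1 to 4, against 129.6, 174.8, 54.8 and 44.4 in the other cells. It lay above the other cells in each brain, and hashtags 1 and 2 were again the high brains. Csf1r, the receptor that microglia need to survive, stood at 7.34, 11.7, 4.52 and 4.64, against 4.56, 8.46, 3.22 and 2.63, and Sparc, a matrix protein, at 9.43, 8.11, 3.76 and 4.07, against 4.36, 7.20, 2.45 and 1.57. The sum of the 16 genes was 368, 316, 113 and 134 in the selected cells and 159, 229.9, 77.2 and 61.6 in the other cells. Their median log2 difference was 1.17, 0.46, 0.54 and 0.74. In the selected cells with at least 3 monocyte genes the sum was 276, 281, 103 and 122, against 407, 329, 147 and 164 in those with fewer.

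Of 19 immediate early genes, which cells switch on quickly after a stimulus, 16 were higher in the selected cells of each brain and none lower in each. Jun stood at 28.3, 27.4, 12.8 and 9.98 UMIs per 10000, against 12.1, 16.4, 8.07 and 4.07 in the other cells, and Egr1 at 11.0, 15.9, 10.0 and 6.90, against 4.76, 8.14, 7.79 and 3.23. Fos stood at 28.6, 31.5, 20.9 and 19.9, against 18.2, 24.0, 22.4 and 16.9, so that hashtag 3 went the other way. The summed level was 226, 262, 165 and 125 in the selected cells and 122, 183, 135 and 79.3 in the other cells.

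Of 11 complement genes 3 were higher in each brain, among them C1qa and C1qc, which encode chains of the first complement component. C1qc stood at 37.7, 38.3, 28.4 and 24.0, against 11.1, 31.3, 16.9 and 13.4 in the other cells, and C1qb at 49.5, 38.5, 40.6 and 32.9, against 17.2, 45.6, 29.7 and 21.7. Among 13 phagocytic genes, Trem2, Fcgr2b and Fcgr3 were higher in each brain. Trem2, the lipid-sensing receptor of microglia, stood at 12.6, 12.1, 4.94 and 9.03, against 3.96, 9.24, 3.56 and 4.97. Of 15 lysosomal genes 5 (among them Ctss, Ctsz, Lgmn and Grn) and of 11 lineage transcription factors 4 (among them Irf8, Mef2c and Cebpa) were higher in each brain and none lower. Against the other cells with at most 1 T cell gene, 3 lysosomal genes were higher in each brain and 4 lower. Of 8 checkpoint genes, Vsir and Sirpa, the receptor for the CD47 signal, were higher in each brain. Sirpa stood at 5.50, 1.99, 1.94 and 1.68, against 0.793, 1.41, 1.15 and 1.32.

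None of 23 interferon-induced genes was higher in the selected cells of each brain, and 6 were lower in each (Isg15, Ifitm3, Irf7, Oasl2, Rtp4 and Ifi27l2a). Isg15, a ubiquitin-like interferon response protein, stood at 0.524, 1.20, 2.47 and 7.64, against 2.97, 1.88, 6.40 and 9.30 in the other cells. Ifitm3, an antiviral membrane protein, stood at 13.9, 9.17, 22.7 and 27.2, against 14.5, 13.2, 30.0 and 32.1. The list summed to 42.5, 35.3, 61.3 and 98.2 in the selected cells and 52.1, 50.6, 87.7 and 112 in the other cells. Within the selected cells it summed to 74.3, 56.6, 64.6 and 116 with at least 3 monocyte genes, against 29.0, 27.4, 49.8 and 52.6 with fewer. Of 12 MHC class I pathway genes 5 were lower in each brain (H2-K1, H2-D1, B2m, Psmb8 and H2-Q7) and none was higher. The 5 became 2 against the other cells with at most 1 T cell gene and 3 as means over cells. Of 8 MHC class II genes 1 was lower in each brain (12.5%, beside 7.39% of all genes). It was H2-Aa, at 4.46, 19.9, 8.93 and 15.3, against 25.4, 22.1, 18.4 and 16.4. The median log2 difference of the class II genes was -2.22, 0.03, -0.69 and 0.13, with no one direction over the brains. Cd74, the invariant chain, stood at 21.5, 80.8, 29.1 and 58.1, against 96.1, 70.2, 55.2 and 56.2, higher in hashtags 2 and 4 and lower in hashtags 1 and 3.

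Of 12 chemokines, Ccl12 and Cxcl10 were higher in the selected cells of each brain and Ccl5, a T cell and NK cell chemokine, was lower in each, at 6.29, 10.5, 5.17 and 11.2, against 23, 39.5, 15.7 and 13.3. These were 16.7% higher and 8.33% lower, and the lower share was near the 7.39% of all genes. Only 3 of 11 and 4 of 15 of the other cells in hashtags 1 and 2 had at most 1 T cell gene. Cxcl10, the CXCR3 ligand named in the study's title, had 5, 9, 32 and 83 UMIs in the selected cells. This is 1.31, 1.20, 1.88 and 3.41 per 10000, against 0.793, 0.157, 1.03 and 3.28 in the other cells, with intervals of 0.425 to 3.06, 0.547 to 2.27, 1.29 to 2.65 and 2.71 to 4.23 in the selected cells. Of 10 cytokine and NF-kB genes, Nfkbiz was higher and Il1b lower in each brain, 10% each way, near the 7.39% of all genes. Of 9 cell cycle genes, Top2a and Ube2c were lower in each brain and none was higher. The disease-associated microglia list had 2 of 22 genes higher in each brain (Trem2 and Timp2) and 3 lower (Itgax, Gpnmb and Fth1). These were 9.09% and 13.6% of the list, against 7.39% of all genes in each direction. Against the other cells with at most 1 T cell gene 1 was higher in each brain and 8 were lower. The list's sum was 237, 339, 385 and 660 in the selected cells and 379, 391, 376 and 549 in the other cells.

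**Figure D4:**
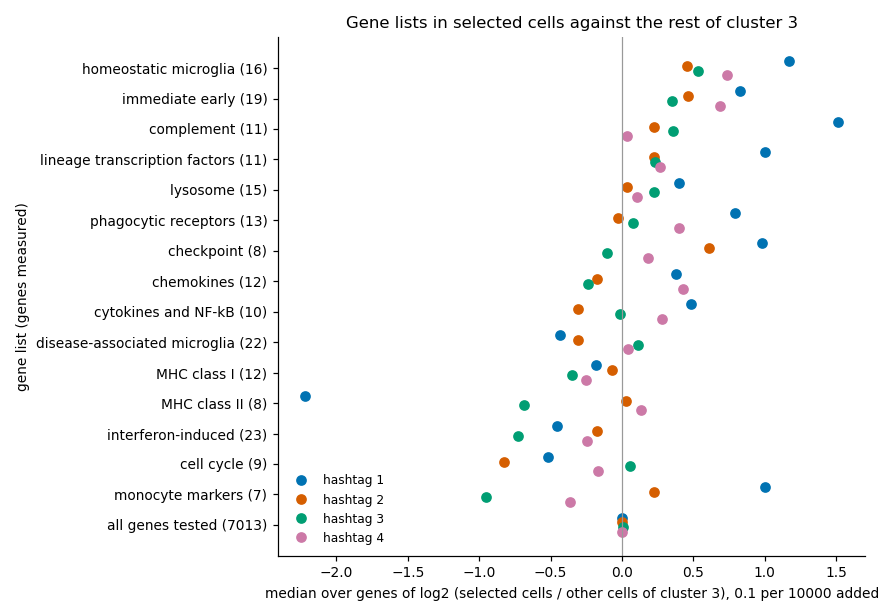
Median over the genes of each list of the log2 difference between selected cells and the other cells of cluster 3 (horizontal axis), 1 point for each brain. The homeostatic list lies between 0.46 and 1.17, the interferon-induced list between -0.73 and -0.18, and all 7013 genes tested at 0.

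Among the selected cells themselves, the 10 genes with the widest ratio between brains included Spp1, Fabp5 and Gpnmb, known from lipid-handling macrophages, and Igkc, Jchain and Ighm, of antibody-secreting cells. Spp1, which encodes osteopontin, had 0, 11, 130 and 1606 UMIs in hashtags 1 to 4. These were 0, 1.46, 7.64 and 66.0 UMIs per 10000, with an upper limit of 0.967 in hashtag 1. In hashtag 4 the 3 highest cells held 444, 416 and 263 of the UMIs, so that 1 cell held 27.6% and 3 cells 69.9%, and without the highest cell the level was 49.7. Fabp5, a fatty acid-binding protein, stood at 0, 0, 1.65 and 7.80 UMIs per 10000, and Gpnmb, a glycoprotein of macrophages with lysosomal load, at 0, 0.133, 1.29 and 3.90. Apoe, the lipid carrier, stood at 40.4, 126, 119 and 173 UMIs per 10000, and Fth1, the ferritin heavy chain, at 40.4, 58.6, 104 and 152. In these summed levels hashtag 1 was lowest and hashtag 4 highest. The level of the median cell was 18.1, 109, 116 and 82.4 for Apoe and 35.3, 56.6, 101 and 89.9 for Fth1, so that by the median cell hashtag 3 was highest for both genes. In selected cells with at least 3 monocyte genes Apoe stood at 7.97, 60.04, 114 and 137, against 54.0, 151, 136 and 269 with fewer. Lyz2, lysozyme of myeloid cells, stood at 40.9, 41.6, 26.8 and 105.

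In hashtags 2 and 3 nearly all immunoglobulin UMIs came from 1 cell each. Igkc, the kappa light chain, had 13, 1955, 562 and 8 UMIs; 1 cell held 1942 of the 1955 UMIs in hashtag 2 and 1 cell 559 of the 562 UMIs in hashtag 3. Jchain, the joining chain of secreted antibodies, had 0, 127, 22 and 0 UMIs, each in 1 cell, and Ighm 11, 365, 103 and 18. In hashtag 4 the 18 Ighm UMIs were spread over 12 cells, and in hashtag 1 the 11 over 7 cells. Retnlg, a neutrophil gene, had 125 UMIs in 3 cells of hashtag 1 and 10, 9 and 45 UMIs in the selected cells of the other brains. The list was completed by Ccl7, a monocyte chemokine, Dpep2, a dipeptidase, and Dazap2. Without the cell with most of its UMIs in each brain, Igkc stood at 1.18, 1.98, 0.182 and 0.208 UMIs per 10000.

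**Figure D5:**
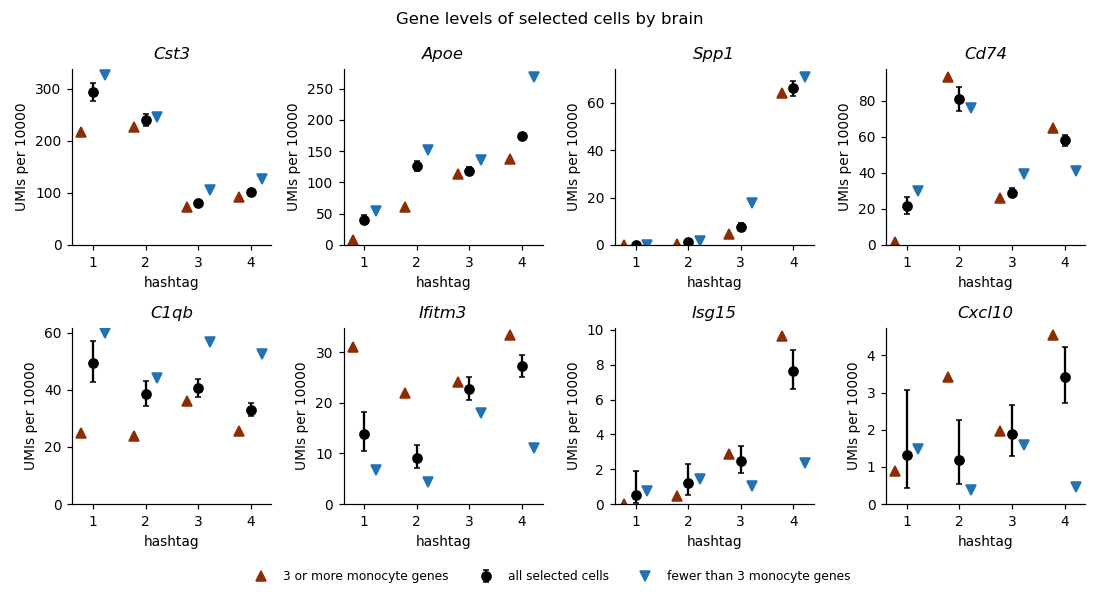
Levels (UMIs per 10000 UMIs, vertical axes) of 8 genes by brain in selected cells with at least 3 monocyte genes (upward triangles), in all selected cells (points, with exact Poisson 95% intervals) and in those with fewer than 3 (downward triangles). Cst3 is 293.3 and 239.6 in hashtags 1 and 2 and 80.6 and 101.3 in hashtags 3 and 4, while Spp1 is 0, 1.46, 7.64 and 66.0.

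RNA of other cell types was present beside these values and differed between brains, and its part in them was not tested. The 7 choroid plexus markers summed to 427, 135, 157 and 198 UMIs per 10000 in the selected cells, and Ttr, which encodes the choroid plexus protein transthyretin, was seen in all 117 cells, at 409.6, 129.8, 152 and 191 per 10000, against 2645 to 3208 in cluster 1. One cell of hashtag 1 held 71.3% of that brain's Ttr UMIs. The 7 neutrophil markers summed to 247, 33.8, 23.9 and 48.7, with 98.5% of the S100a8 UMIs of hashtag 1 in 3 cells. The 7 monocyte markers summed to 26.2, 14.4, 22.8 and 33.8, against 14.1, 9.40, 39.4 and 45.4 in the other cells, and 7 of 7 were seen in every brain. The 7 B cell markers summed to 9.70, 310, 39.5 and 1.44. The T cell genes, which the rule itself kept low, summed to 0.262, 0.797, 0.646 and 0.411, so their sum does not measure T cell RNA independently. Cd3e itself was at 0 UMIs in hashtags 1, 2 and 4 and at 2 in hashtag 3. Neuron markers summed to at most 0.294, oligodendrocyte markers to at most 1.33 and astrocyte markers to at most 1.33.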

How the data were processed

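RNA, antibody tags and hashtags were read from 1 pool of 4 brains. Gene values were deposited as ln(1 + UMIs per 10000), a natural log, as the authors' table shows. UMI counts were recovered from them and the deposited UMI total: 99.8% of nonzero values came out whole within 0.01, and cell sums lay within 10 UMIs of that total. Per the submitters' processing notes the tools were Cell Ranger 2.1 and Seurat 2.3.4 and the build mm10; which step used which is not stated there. Tags and hashtags are counts that the authors obtained with CITE-seq-Count (series' design text). The deposited cell table also holds a mitochondrial fraction, a hashtag class, a cluster number, and a p-value and q-value of the hashtag call that were not used. Filters on cells or on genes were not given in the sources used here. All deposited cells were kept, and doublets were not called.

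UMIs were summed over the selected cells of a brain and divided by their UMI total, with exact Poisson 95% intervals; log2 differences used 0.1 per 10000 added. Shares have exact Clopper-Pearson intervals. Intervals cover counting error only, since 1 pool was sequenced. Tags were compared as the mean of log2(count + 1) per brain, paired by brain because both classes came from the same animal, with an exact sign permutation over 4 brains. Planned comparisons of naive and metastatic brains were not possible. Thinning drew 2495 UMIs per cell, the lowest total of any cell. Named genes were the selection genes, the 6 genes with most UMIs of each list (at least 10 UMIs), genes outside the lists at least 2-fold apart in each brain, and the 10 genes with at least 60 UMIs and the widest ratio between brains. Other genes named were those whose direction was shared by all 4 brains, list markers, and Cxcl10, chosen after their values were seen. Some genes counted in the lists are not reported here by name. The members and the gene lists were chosen with earlier results of these data known. The code of the gene comparison was run on simulated Poisson counts with changes larger than 2-fold and no variation between cells or brains. That run does not bear on calls near 2-fold or on genes with few UMIs. Software was Python 3.11.15, numpy 2.4.6, scipy 1.17.1 and pandas 2.3.3.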

Additional observations from a re-analysis of the deposited data

Results flagged for a closer look

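One of 21 sets of brain values tested (6 tags and 15 gene lists) had a brain far from the other three. For the lineage transcription factors the median log2 difference between selected cells and the other cells of cluster 3 was 1.0 in hashtag 1, against 0.22, 0.23 and 0.27 in hashtags 2, 3 and 4. The gap to the nearest brain was 0.945 of the whole range, above Dixon's 95% critical value for 4 samples. Chance flags about 1 in 20 such sets. Hashtag 1 had 10 selected cells and 11 other cells, and 3 of these 11 had at most 1 T cell gene.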

How the results depend on the processing

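The number of selected cells was 117. It was 170 with at least 2 selection genes required, 74 with at least 4 and 46 with fewer than 3 monocyte genes. It was 95 with no T cell gene, 91 after thinning and 85 with at least 80% of hashtag counts from the cell's own hashtag. By brain, cells with at least 80% of hashtag counts from their own hashtag numbered 5 in hashtag 1 and 9 in hashtag 2. In hashtag 3, against 33 cells, there were 57 with at least 2 selection genes and 18 with at least 4. There were 19 after thinning and 11 with fewer than 3 monocyte genes. In hashtag 4, against 55 cells, there were 81 with at least 2 selection genes, 29 with at least 4 and 15 with fewer than 3 monocyte genes. The summed selection genes of hashtag 3 were 16.8 per 10000 as a mean over cells, 19.5 with at least 4 selection genes and 19.9 with fewer than 3 monocyte genes, against 14.0; in hashtag 4 they were 26.2 with at least 4 selection genes, 17.1 in cells of pure hashtag and 24.1 with fewer than 3 monocyte genes, against 20.7. The tag differences changed sign for CD86 as a share of the 6 tags (0.24), with at least 4 selection genes (0.032) and in cells of pure hashtag (0.11). Against other cells with at most 1 T cell gene they changed sign for CD11b (-0.28), CD86 (0.14), CD3e (0.41) and CD4 (0.21). In selected cells with fewer than 3 monocyte genes they changed sign for CD11b (-0.18) and CD25 (-0.44), and against the removed T cell gene cells for CD25 (-0.066). With each brain left out in turn the differences ranged from -0.61 to -0.38 for CD45, -0.019 to 0.36 for CD11b, -0.10 to 0.045 for CD86, -1.43 to -0.91 for CD3e, -0.66 to -0.40 for CD4 and -0.046 to 0.15 for CD25; leaving out hashtag 1 turned CD11b, hashtags 1 or 2 CD25, and hashtags 3 or 4 CD86. Without the replicate block, so that the pairing by brain was ignored, CD45 (-0.52) and CD3e (-1.13) had an exact permutation p of 0.0286, adjusted 0.0857. The 2 genes 2-fold higher in each brain became 0 with 0.5 per 10000 added, 6 as means over cells, 17 against cells with at most 1 T cell gene, 5 in selected cells with fewer than 3 monocyte genes, and 2 to 20 with a brain left out. The 10 genes 2-fold lower became 1 with 0.5 added, 1 against cells with at most 1 T cell gene, 75 in selected cells with fewer than 3 monocyte genes, and 18 to 31 with a brain left out. The cause of these changes was not tested. Homeostatic genes higher in each brain numbered 10 to 13 and immediate early genes 14 to 18 over these alternatives, and the interferon-induced genes lower in each brain 5 to 11. MHC class I genes lower in each brain numbered 2 to 7, lysosomal genes higher 3 to 7 and lower 0 to 4, and disease-associated genes higher 1 to 4 and lower 2 to 8. Of 416 gene levels, 146 moved beyond their counting interval without the cells that carried monocyte genes, 80 in cells of pure hashtag, 72 without the cell with most UMIs of the gene, 62 with at least 4 selection genes and 21 as means over cells. The alternatives with fewer than 3 monocyte genes, without the top cell and against the removed cells were chosen after seeing the data.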
